A study of Oncorhynchus mykiss with 6 samples.

Results

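The miRNAs described here are miR-21 and miR-22, abundant small regulatory RNAs of the rainbow trout (Oncorhynchus mykiss) liver. They were taken as every name in the deposited count tables that reads exactly miR-21 or miR-22 once its final -x, -y or -z is removed. This gave 4 of 2730 names, miR-21-x, miR-21-y, miR-22-x and miR-22-y, and all 4 passed the filter on low counts that left 651 names for testing. No name with the suffix -z was listed for either family.

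The study compared livers of heat-stressed trout (HS), whose water was warmed by 1 °C every 24 h up to 24 °C, with livers of trout kept at 18 °C (CG, here called control). There were 3 libraries in each group. All fish were female and 150 days old according to the labels, with a mean weight of 200 ± 5.5 g. The treatment text speaks of 12 fish but does not say how many went into a library, and the spread behind each p-value is that between libraries, which may be technical. The mature miRNA counts summed to 12778484, 9267658 and 10245572 in heat replicates 1 to 3, against 9692590, 11894384 and 11117223 in control replicates 1 to 3. Levels are normalized CPM, that is counts scaled to a common library size with factors from the trimmed mean of M-values (TMM), unless library totals are named. Heat replicate 1 and control replicate 2 stood apart, with TMM factors of 1.24 and 1.25 against 0.87 to 0.92 elsewhere.

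A miRNA is cut from a hairpin precursor as a short duplex. One strand is usually kept in the Argonaute complex and pairs through its seed, bases 2 to 8, with target mRNAs, while the partner strand is mostly degraded. In mammals miR-21 is induced in inflamed, regenerating and fibrotic liver and represses the cell death regulator Pdcd4. Mammalian miR-22 is an abundant miRNA of liver and muscle that is linked to lipid metabolism. In mammals the kept strand comes from the left arm of the miR-21 hairpin and from the right arm of the miR-22 hairpin. The files do not define the suffixes.

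The 4 sequences are shown because the seed sets which targets a strand can recognise and because both names of each family were counted. The names of a family are called strands of a hairpin here, by analogy with mammals and from the predicted pairing below. The trout hairpins themselves were not determined. The files write T for U, each sequence is given from its 5′ end, and capitals mark the seed.
miR-21-x: tAGCTTATcagactggtgttggc
miR-21-y: cGACAACAgtctgtaggctgt
miR-22-x: aGTTCTTCactggcaagcttt
miR-22-y: aAGCTGCCagctgaagaactgt

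The strands are 23, 21, 21 and 22 bases long in that order, against a median of 22 over the 1685 distinct sequences of the files. Their seeds differ from one another. The main strands miR-21-x and miR-22-y share the letters AGCT at bases 2 to 5, which 8 of the 1685 sequences (0.475%) have there, and then diverge. This stretch was picked because both main strands have it, so its rarity carries no weight. None of the 4 sequences was listed under a second name, and no predicted miRNA came within 4 edits of any of them. Folded together with RNAduplex, miR-21-x and miR-21-y were predicted to form 19 base pairs (-25.0 kcal/mol) and miR-22-x and miR-22-y also 19 (-26.9 kcal/mol). No other pairs of sequences were folded for comparison.

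Each family had one dominant and one scarce strand. Over the 6 libraries miR-22-y averaged 51267 CPM, miR-21-x 19028, miR-22-x 931 and miR-21-y 777 CPM. By total counts they ranked 7th, 12th, 48th and 52nd of all names. A read covers a whole mature strand, so these levels need no correction for length. Whether strands of different sequence were captured equally well was not tested. miR-22-y exceeded miR-21-x in 6 of 6 libraries and miR-21-x exceeded miR-22-x in 6 of 6. The order of the scarce strands was not fixed: miR-22-x exceeded miR-21-y in 4 of 6 libraries, and miR-21-y was the higher in heat replicate 1 and control replicate 2.

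The dominant miR-22 strand had a lower mean in heat, without passing the test. miR-22-y was counted 559422, 391858 and 470698 times in heat replicates 1 to 3, against 498117, 848278 and 592489 times in control replicates 1 to 3. Normalized, this was 35347, 48617 and 50604 CPM in heat, against 56156, 57009 and 59868 CPM in control. Every heat library lay below every control, the controls were close together, and heat replicate 1 was well below its companions. The means were 44856 ± 8295 CPM in heat and 57678 ± 1944 CPM in control (SD, n = 3 each). The fitted log2 difference, heat minus control, was -0.36 ± 0.23 (SE, 95% interval -0.89 to 0.17), with an adjusted p of 0.995 in edgeR's quasi-likelihood test. The interval corresponds to 0.539- to 1.12-fold, so a 2-fold change in either direction lies outside it. For a fall this depended on the setting. The lower limit of the log2 difference was -1.15 without heat replicate 3, -1.11 without heat replicate 2 and -1.06 without control replicate 1. With replicate number as a block it was -1.07. All of these limits are past a 2-fold fall.

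On library totals the separation was the same. miR-22-y held 4.38%, 4.23% and 4.59% of all counts in heat replicates 1 to 3, against 5.14%, 7.13% and 5.33% in control replicates 1 to 3. Counting error was small beside these gaps, since the exact binomial 95% interval of the first heat value was 4.37% to 4.39%. Intervals of this kind cover counting error only. On this scale it was control replicate 2 that stood out, whereas on the normalized scale it was heat replicate 1. Both strands of miR-22 together held 4.49% ± 0.190 of counts in heat and 5.96% ± 1.14 in control (SD, n = 3 each; two-sided exact permutation p = 0.1, the smallest that 3 against 3 libraries allow; 0.5 adjusted over 5 within-library measures). The difference of -1.47 percentage points, heat minus control, was -0.82 without control replicate 2.

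miR-22-y was the one member of 4 whose heat libraries all lay below the controls, and the groups of the other members overlapped. Heat libraries lay wholly below controls for 20 of the 651 names (3.07%) on normalized CPM and for 15 (2.3%) on library totals. With heat replicate 1 left out, its log2 fold change was -0.20. With heat replicate 1 and control replicate 2 both left out, it was -0.26 ± 0.10 (SE, unadjusted p = 0.0572 and adjusted p = 0.550 in edgeR's quasi-likelihood test). This unadjusted p was the lowest for miR-22-y in any setting run. In the same test it was 0.153 with all libraries and 0.412 without heat replicate 1. With both libraries left out, 53 of 612 names had an unadjusted p under 0.05, against 20 of 651 with all libraries. The pair left out stood apart in these same data, and heat replicate 1 also held the lowest normalized miR-22-y level. Leaving the pair out also left fewer libraries in each group.

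**Figure D1:**
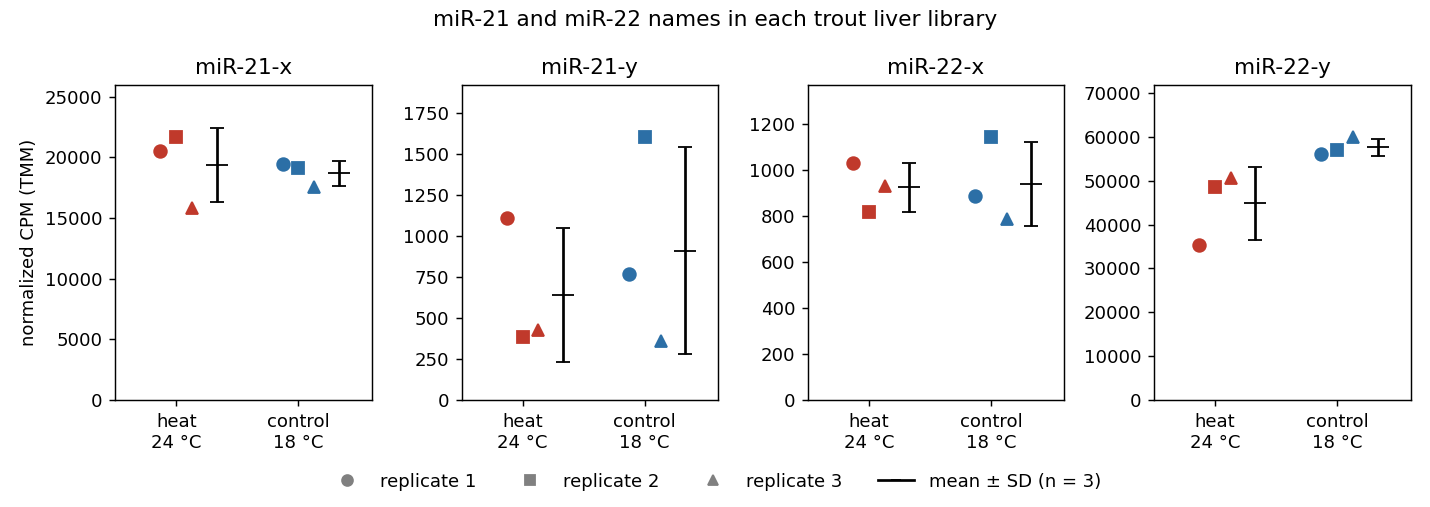
Normalized CPM of the 4 names in the heat libraries (red) and the control libraries (blue); marker shapes give the replicate number, and black bars the mean ± SD of 3 libraries. For miR-22-y the heat libraries (35347 to 50604 CPM) all lie below the controls (56156 to 59868 CPM), and the groups overlap for the other 3 names.

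The dominant miR-21 strand had similar means in both groups. miR-21-x was counted 325423, 174481 and 147630 times in heat replicates 1 to 3, against 172500, 284331 and 173481 times in control replicates 1 to 3. Normalized, it stood at 20562, 21647 and 15872 CPM in heat, against 19447, 19109 and 17529 CPM in control. The heat libraries lay on both sides of the controls. The means were 19360 ± 3070 CPM in heat and 18695 ± 1024 CPM in control (SD, n = 3 each), and the fitted log2 difference was 0.05 ± 0.22 (SE) with a 95% interval of -0.46 to 0.56 (edgeR adjusted p = 0.995). The interval corresponds to 0.728- to 1.47-fold, so a 2-fold change in either direction lies outside it.

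miR-21-x was among the steadier miRNAs once libraries were scaled. The SD of its log2 CPM over the 6 libraries was 0.16, the 12th lowest of 102 known names above 100 CPM, whose median was 0.37. miR-22-x had 0.20, miR-22-y 0.28 and miR-21-y 0.89. The last value was the 95th lowest of the 102, so the scarce strand of miR-21 was among the most variable names while its partner was among the least.

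The scarce miR-21 strand varied widely between libraries of both groups. miR-21-y was counted 17617, 3106 and 3973 times in heat replicates 1 to 3, against 6829, 23831 and 3587 times in control replicates 1 to 3. Its level was 1113, 385 and 427 CPM in heat, against 770, 1602 and 362 CPM in control. Each group held 1 high library, control replicate 1 was intermediate, and the highest library was 4.42 times the lowest. The means were 642 ± 409 CPM in heat and 911 ± 632 CPM in control (SD, n = 3 each), and the fitted log2 difference was -0.51 ± 0.60 (SE) with a 95% interval of -1.90 to 0.89 (edgeR adjusted p = 0.995). That is 0.268- to 1.85-fold, so for this strand a fall by more than 2-fold is not outside the interval. Its direction rested on control replicate 2: the log2 fold change was 0.16 without that library and -1.14 without heat replicate 1.

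The 3 libraries with the most miR-21-y were also the 3 with the highest summed leukocyte miRNAs, 1 of 7 marker lists. Among these 3 the order was reversed: control replicate 2 had the most miR-21-y and the lowest leukocyte sum of them. The summed level of the leukocyte families miR-142, miR-150, miR-155 and miR-223, all 4 detected in every library, was 2789, 958 and 1435 CPM in heat replicates 1 to 3, against 2966, 2502 and 1368 CPM in control replicates 1 to 3. The pancreas families miR-216, miR-217 and miR-375, all 3 detected in every library, summed to 184 to 291 CPM in heat and 150 to 346 CPM in control, with the highest values in heat replicate 1 and control replicate 2. Hepatocyte families (miR-122, miR-148, miR-192 and miR-194) summed to 239221, 385063 and 359943 CPM in heat, against 364844, 225346 and 390171 CPM in control, so they were lowest in the same pair of libraries. The remaining marker sums were 4225 to 5845 CPM in heat and 3895 to 6703 CPM in control for erythrocyte families, and 109173, 180552 and 164717 CPM in heat replicates 1 to 3 and 179079, 105255 and 182488 CPM in control replicates 1 to 3 for endothelial and stromal families, which were thus lowest in the same pair of libraries as the hepatocyte families. Muscle families summed to 17.9 to 23.3 CPM in heat and 14.6 to 29.9 CPM in control, and retina and neural families to 55.8 to 93.0 CPM in heat and 59.9 to 102 CPM in control. The groups overlapped for each of the 7 marker lists. The part of these in the miR-21-y and miR-22-y values was not tested, and in tissue libraries fewer cells of a type cannot be told apart from less RNA per cell.

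The scarce miR-22 strand had nearly equal means. miR-22-x was counted 16291, 6573 and 8643 times in heat replicates 1 to 3, against 7873, 16985 and 7777 times in control replicates 1 to 3, or 1029, 815 and 929 CPM in heat against 888, 1141 and 786 CPM in control. The heat values all fell between the lowest and the highest control. The means were 925 ± 107 CPM in heat and 938 ± 183 CPM in control (SD, n = 3 each), and the fitted log2 difference was -0.02 ± 0.24 (SE) with a 95% interval of -0.58 to 0.54 (edgeR adjusted p = 0.995). A 2-fold change lies outside this interval in both directions.

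None of the 4 names passed the edgeR test, and neither did any other name: 0 of 651 (0%) had an adjusted p under 0.05, while 20 (3.07%) had an unadjusted p under 0.05. Of the members, 0 of 4 had an unadjusted p under 0.05. DESeq2 called 2 names and limma-voom with quality weights 0, none of them a member. The median log2 fold change over all 651 names was -0.02. Summing both strands of each family left the picture as it was: miR-21 stood at 20229 ± 3484 CPM in heat and 19455 ± 1691 CPM in control (log2 fold change 0.06 ± 0.22, SE), and miR-22 at 46095 ± 7183 CPM in heat and 58136 ± 1972 CPM in control (-0.33 ± 0.22, SE, or -0.14 without heat replicate 1 and control replicate 2 together). Both had an adjusted p of 0.999 over the 404 families and predicted sequences tested with edgeR, where 0 (0%) were called, 8 had an unadjusted p under 0.05 and DESeq2 called 1. The heat libraries lay wholly below controls for miR-22 here too, as for 11 of the 404 (2.72%).

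**Figure D2:**
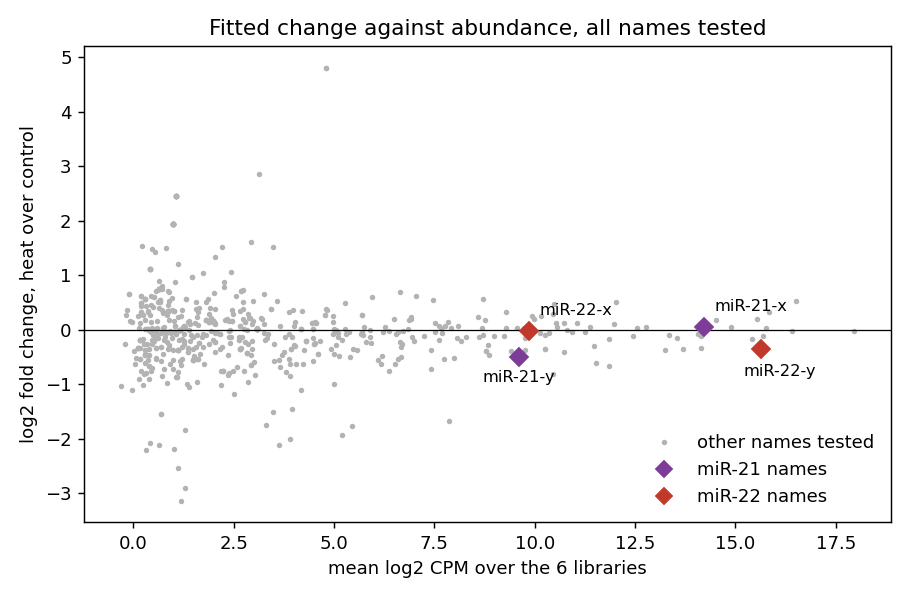
Fitted log2 fold change of heat over control (vertical axis) against mean log2 CPM over the 6 libraries (horizontal axis) for the 651 names tested, one grey point each, with miR-21 names in purple and miR-22 names in red. The 4 members lie between -0.51 and 0.05, among names of like abundance.

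Names of similar abundance give a scale for these values. Next to miR-22-y in mean level were miR-30-x (55751 CPM) and let-7-x (52795 CPM) above it, and miR-192-x (47380 CPM) and miR-181-x (43998 CPM) below it. All 4 of these gaps were smaller than the SD of miR-22-y over the 6 libraries, 8852 CPM. Their log2 fold changes were 0.03 for the widely expressed miR-30-x, -0.11 for let-7-x, 0.19 for the hepatocyte miRNA miR-192-x and -0.16 for miR-181-x. For miR-22-y it was -0.36, the lowest of the 5, but each of the 5 intervals included 0 and the differences between them were not tested.

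Next to miR-21-x stood the endothelial miR-126-y (30350 CPM) and miR-125-x (23460 CPM) above it, and miR-146-x (18078 CPM) and miR-148-y (18046 CPM) below it. The last pair lay within the SD of miR-21-x over the 6 libraries, 2079 CPM. Their own SDs were larger, from 5885 CPM for miR-146-x, a miRNA of inflammatory signalling, to 11305 CPM for miR-125-x. The SE of the log2 fold change was 0.22 for miR-21-x, against 0.34 for miR-126-y, 0.66 for miR-125-x, 0.31 for miR-146-x and 0.41 for miR-148-y.

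**Figure D3:**
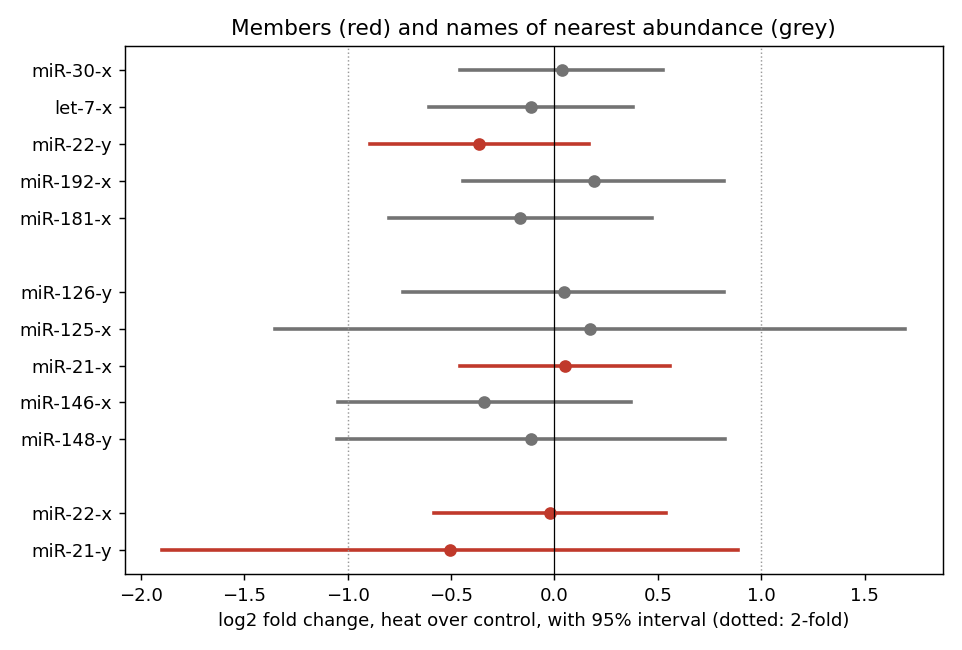
Log2 fold change of heat over control with its 95% interval for the members (red) and, in grey, the names ranked next above and below the dominant strands in mean CPM; dotted lines mark a 2-fold change. All intervals include 0, and that of miR-21-y (-1.90 to 0.89) is the widest among the members.

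Patterns over the 6 libraries were compared by the root mean square difference of centred log2 CPM, over 101 other known names above 100 CPM. Nearest to miR-22-y was miR-140-y, a cartilage-linked miRNA in mammals (difference 0.13, against a median of 0.41). It stood at 628, 835 and 810 CPM in heat, against 855, 1135 and 954 CPM in control. As for miR-22-y, heat replicate 1 was lowest and no heat library reached a control, and the fitted log2 difference was -0.37 ± 0.24 (SE; edgeR adjusted p = 0.995). Since miR-140-y was picked for its likeness over these same libraries, these shared features follow from that choice. Next came miR-194-x (0.15) and miR-192-y (0.18), strands of hepatocyte miRNAs. Nearest to miR-21-x were miR-30-x (0.14), miR-17-x (0.14) and miR-130-x (0.16), against a median of 0.36. These likenesses are over 6 libraries that share their scaling, and are a description.

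The balance between the strands of a hairpin can be read inside a library, where scaling plays no part. The scarce strand miR-21-y made up 5.14%, 1.75% and 2.62% of miR-21 counts in heat replicates 1 to 3, against 3.81%, 7.73% and 2.03% in control replicates 1 to 3. Exact binomial 95% intervals were at most 0.1 percentage points to each side, so the libraries differed beyond counting error. In the terms of the duplex, between 11.9 (control replicate 2) and 56.2 (heat replicate 2) main strands were counted for each partner strand. The log2 ratio of miR-21-y to miR-21-x was -5.08 ± 0.81 in heat and -4.61 ± 1.01 in control (SD, n = 3 each; exact permutation p = 0.6, adjusted 0.75), and the groups overlapped. The direction of the difference, -0.47 heat minus control, rested on control replicate 2, without which it was 0.049. It was -0.90 without heat replicate 1, -0.10 without heat replicate 2 and -0.96 without control replicate 3.

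The miR-22 strands kept a narrower balance. miR-22-x made up 2.83%, 1.65% and 1.80% of miR-22 counts in heat replicates 1 to 3, against 1.56%, 1.96% and 1.30% in control replicates 1 to 3. Heat replicate 1 was highest, and the other heat libraries lay inside the control range. The log2 ratio of miR-22-x to miR-22-y was -5.59 ± 0.43 in heat and -5.96 ± 0.31 in control (SD, n = 3 each; exact permutation p = 0.4, adjusted 0.667). The difference, 0.37 heat minus control, came to 0.13 when heat replicate 1 was left out and to 0.22 when control replicate 3 was.

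Heat replicate 1 and control replicate 2 were the 2 libraries with the largest share of the scarce strand in both families. To see how common that was, the same log2 ratio was taken in the 68 known families whose 2 most abundant names of different sequence were tested and had at least 10 counts in every library, a comparison chosen after the values were seen. Not every such ratio is between the strands of a hairpin: miR-200-z and miR-200-y, for example, differ by 1 substitution, C17T. Heat replicate 1 and control replicate 2 were the 2 highest libraries in 21 of the 68 (30.9%), miR-21 and miR-22 included. The median deviation from the family's mean was 0.29, -0.28 and -0.10 in heat replicates 1 to 3, against 0.13, 0.23 and -0.12 in control replicates 1 to 3. miR-21 went further than most in control replicate 2, at 1.27, and miR-22 stayed at 0.13 there; in heat replicate 1 they were at 0.64 and 0.67. The range of the ratio over the 6 libraries was 2.24 for miR-21, the 14th widest of the 68, and 1.15 for miR-22, the 46th widest, against a median of 1.38.

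**Figure D4:**
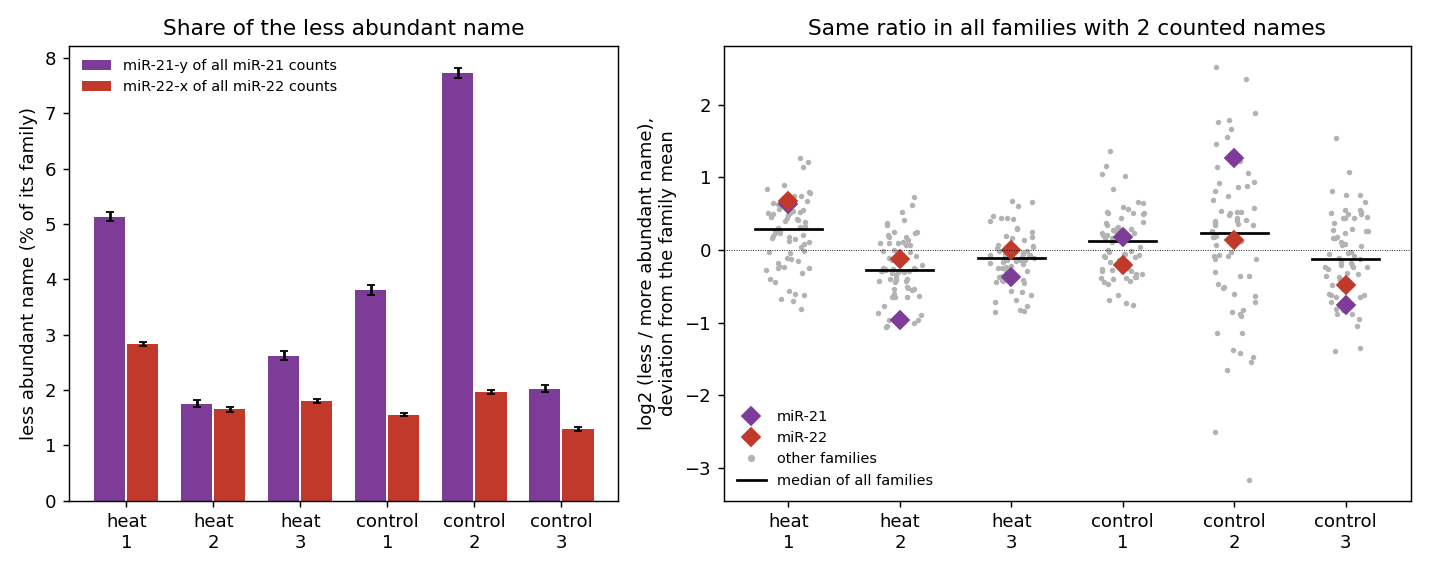
Left, the less abundant name as a percent of its family in each library, with exact 95% intervals. Right, the log2 ratio of the less to the more abundant name as a deviation from the family's mean over 6 libraries. miR-21 is in purple, miR-22 in red, the other families in grey and the median of all 68 in black. The miR-21 ratio is highest in control replicate 2 (1.27) and lowest in heat replicate 2 (-0.97).

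The ratio between the main strands was compared in the same way. The log2 ratio of miR-21-x to miR-22-y was -0.78, -1.17 and -1.67 in heat replicates 1 to 3, against -1.53, -1.58 and -1.77 in control replicates 1 to 3. Heat replicates 1 and 2 lay above every control and heat replicate 3 among them. The means were -1.21 ± 0.45 in heat and -1.63 ± 0.13 in control (SD, n = 3 each; exact permutation p = 0.3, adjusted 0.667). The difference of 0.42, heat minus control, was 0.21 without heat replicate 1 and 0.65 without heat replicate 3.

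One further name carries almost the sequence of miR-22-y. A search of all 2730 names found miR-3966-x at 1 substitution, A14T (the base of miR-22-y first, with positions counted from 1 at the 5′ end), so both have the same seed. Another name with this seed, miR-745-y, differs from miR-22-y at 5 of 22 bases and had 25 counts in all. The 3 are set out together, with the seed in capitals, to show where they part.
miR-22-y: aAGCTGCCagctgaagaactgt
miR-3966-x: aAGCTGCCagctgtagaactgt
miR-745-y: gAGCTGCCaaatgaagggctgt

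miR-3966-x was counted in near-constant proportion to miR-22-y. It had 162, 113 and 142 counts in heat replicates 1 to 3, against 155, 241 and 165 in control replicates 1 to 3. These were 0.0290%, 0.0288% and 0.0302% of the miR-22-y counts in heat, against 0.0311%, 0.0284% and 0.0278% in control, and the exact binomial 95% intervals of all 6 libraries overlapped. The mean was 0.0293% ± 0.000736 in heat and 0.0291% ± 0.00175 in control (SD, n = 3 each). Among the 46 distinct sequences above 1000 CPM, 7 pairs with a less abundant name at 1 substitution were found. The coefficient of variation of the proportion over the libraries was 4.12% for miR-3966-x, the lowest of the 7, against 14.7% for miR-99-x beside miR-100-x and 27.0% for miR-152-y beside miR-148-y. Scarcer names had 56.1% (miR-11977-y beside miR-24-y, 83 counts in all) and 58.8% (miR-8-y beside miR-200-y, 70 counts). With 113 to 241 counts of miR-3966-x per library, counting error weighs on its value and its rank. As its proportion implies, miR-3966-x had a fitted log2 difference close to that of miR-22-y, -0.35 ± 0.35 (SE; edgeR adjusted p = 0.995).

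**Figure D5:**
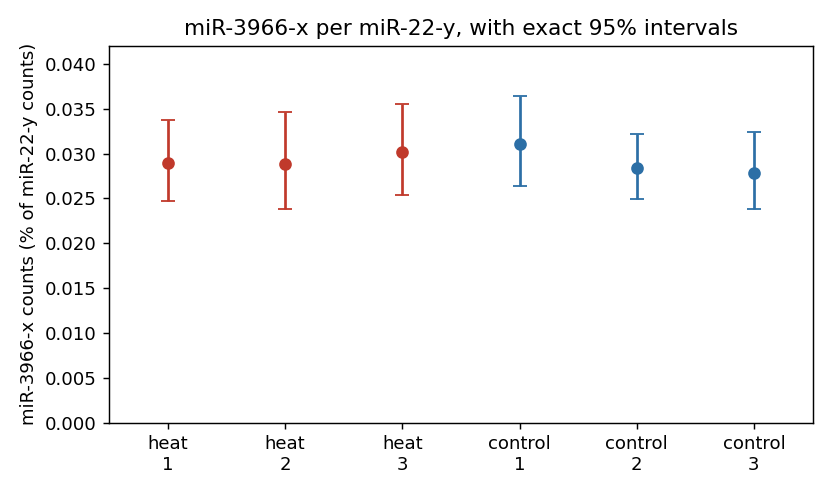
Counts of miR-3966-x as a percent of the counts of miR-22-y in each library, with exact binomial 95% intervals, heat in red and control in blue. The 6 values lie between 0.0278% and 0.0311%, and their intervals overlap.

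Other miRNAs with which miR-21 and miR-22 are commonly discussed were counted as lists. Of the inflammation- and fibrosis-linked families (miR-29, miR-34, miR-146, miR-155, miR-199, miR-200, miR-214, miR-221 and miR-222), 17 of 19 names were tested and 0 were called by edgeR (0 at an unadjusted p under 0.05). Fitted folds were below 1 for 11 and above 1 for 6, with a median log2 fold change of -0.15. The lowest p belonged to the epithelial miR-200-z, at 150, 98.5 and 84.7 CPM in heat, against 62.3, 847 and 154 CPM in control. Its groups overlapped, with control replicate 1 the lowest of all libraries and control replicate 2 far above the rest, and its fitted log2 difference was -1.67 ± 0.85 (SE). Next was miR-146-y, much scarcer than miR-146-x, at 36.3, 30.9 and 36.9 CPM in heat, against 55.7, 46.6 and 44.6 CPM in control. All heat libraries of miR-146-y lay below the controls, as they did for 20 of the 651 names (3.07%). The fitted log2 difference of miR-146-y was -0.50 ± 0.30 (SE, edgeR adjusted p = 0.995). Since miR-146-y was named for its low p within the list, that choice favours such a separation. The abundant miR-146-x averaged 15969 ± 315 CPM in heat and 20187 ± 8552 CPM in control (SD). Its fitted log2 difference was -0.34 ± 0.31 (SE; edgeR adjusted p = 0.995).

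Of the metabolism-linked liver families (miR-27, miR-30, miR-33, miR-103, miR-107, miR-122, miR-130, miR-148 and miR-192), 18 of 19 names were tested and edgeR called 0 (0 at an unadjusted p under 0.05). Fitted folds were below 1 for 14 and above 1 for 4, with a median log2 fold change of -0.12, against 344 of 651 names (52.8%) below 1 over the whole table. miR-33-x, which lies in an intron of a sterol-regulatory gene in vertebrates, stood at 111, 44.3 and 67.2 CPM in heat, against 69.3, 41.2 and 35.8 CPM in control (log2 fold change 0.60 ± 0.44, SE). miR-103-y, linked to insulin sensitivity in mammals, stood at 997, 1190 and 1029 CPM in heat, against 1077, 2004 and 1018 CPM in control (-0.35 ± 0.31, SE). In both the groups overlapped.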

How the data were processed

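Small RNA read counts of 6 liver libraries were analysed. Per the file headers, a file holds one line per miRNA name with sequence, length, the library's count and TPM, and the summed count of all libraries. The count column, used as deposited, held whole numbers. The TPM column of the authors writes 0.01 for a count of 0 and does not sum to a fixed total as TPM should, so it was recorded as a score and not used. The sources used here do not give the aligner, database, genome build or library preparation; one protocol field describes retina and an rRNA-depleted preparation, which is not a small RNA library.

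The whole table was fitted with edgeR 4.0.16 under R 4.3.3 (filterByExpr, minimum count 10, TMM, robust quasi-likelihood test, Benjamini-Hochberg threshold 0.05), with a second fit on family sums. Intervals use the fitted degrees of freedom. Within-library shares and log2 ratios (pseudocount 0.5) were compared with exact permutation tests (scipy 1.17.1). Pairing was predicted with ViennaRNA 2.7.2. Alternatives used DESeq2 1.42.0 and limma 3.58.1. The fit was tested on simulated data. Named besides the members were names sharing a member's sequence or seed, the 2 neighbours above and below each strand over 1000 CPM, the 3 nearest patterns, and the 2 lowest-p names of each list. Members and lists were chosen with earlier results of these data known.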

Additional observations from a re-analysis of the deposited data

How the results depend on the processing

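No member passed the threshold in any setting run. The count of names called by edgeR, 0, was 2 with the DESeq2 Wald test after the same filter and 23 without a count filter. For families and predicted sequences it was 1 and 6, and it was 0 over all libraries left out in turn; the cause was not tested. miR-22-y kept its sign in 18 of 18 settings, from -0.42 to -0.20, and the miR-22 sum in 15 of 15, from -0.47 to -0.14, the last without control replicate 2 and heat replicate 1 together. For both, every heat library lay below every control, so leaving libraries out could hardly reverse the sign. These tallies restate that separation and are no separate support for a direction. Several values changed sign. For miR-21-x these were -0.0092 without control replicate 2 and heat replicate 1 together and -0.011 with limma-voom, and for miR-22-x 0.027 and 0.026 in the same settings and 0.092 with known family names alone. Left-out libraries gave log2 fold changes of -0.016 to 0.22 for miR-21-x, -1.14 to 0.16 for miR-21-y, -0.089 to 0.14 for miR-22-x, -0.41 to -0.20 for miR-22-y, -0.074 to 0.14 for the miR-21 sum and -0.47 to -0.25 for the miR-22 sum. They gave heat-minus-control differences of -0.31 to 0.31 percentage points for the miR-21 share, -1.84 to -0.82 for the miR-22 share, -0.96 to 0.049 for the log2 ratio of miR-21-y to miR-21-x, 0.13 to 0.53 for miR-22-x to miR-22-y and 0.21 to 0.65 for miR-21-x to miR-22-y. The miR-21 share was -0.024 without both libraries that stood apart. Counting miR-3966-x with miR-22-y, chosen after seeing the data, left miR-22-y at -0.36. Libraries with equal replicate numbers were not treated as paired, as their deviations correlated at 0.081, -0.19 and 0.15 and each needed 0.1. Libraries with unequal numbers correlated at -0.33 to 0.23, so these values can neither show nor exclude pairing. The replicate block called 0 names and gave -0.38 for miR-22-y and 0.039 for miR-21-x. Counting error was small beside the spread between libraries for all 4 names, and the SE of the log2 fold change ran from 0.22 for miR-21-x to 0.60 for miR-21-y.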
